A study of Mus musculus with 89 samples.

Results

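Ddr2, Rgs11, Dpp4 and Aass are 4 of the 54146 genes in the RNA-seq table of mouse embryonic stem cells (ESCs) that lost the orphan nuclear receptors Esrrb, Nr5a2 or both. They were taken by their gene symbols and were chosen by their large changes after loss of Nr5a2 alone (the −N against +E+N values of these same libraries), so their values in that comparison are a description and carry no test. Each symbol matched 1 row and all 4 passed the filter on low counts in both media. The cells were the EKOiE line, in which endogenous Esrrb is disrupted and an Esrrb transgene is switched on by Doxycycline (Dox, 1 µg/ml), and EKOiE NrKO, the same line with Nr5a2 disrupted as well. Control ESCs with Dox are called +E+N. EKOiE cells kept 2 days without Dox are −E. For EKOiE NrKO cells the name is −N when Dox was present and −E−N after 2 days without it. Every group therefore carries the disrupted endogenous Esrrb alleles, and loss of Nr5a2 cannot be told apart from any other property of the NrKO line. The cells were grown in serum with leukaemia inhibitory factor (FCS/LIF, 2 replicates of each of 4 states) or with 2 kinase inhibitors, PD0325901 and CHIR99021, and the same factor (2i/LIF, 3 replicates of each state), which made 8 groups and 20 libraries. Medium and the occasion of culture cannot be told apart either.

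Nr5a2 and Esrrb bind DNA as monomers at an extended nuclear receptor half-site and both activate genes of naive pluripotency. Of the 4 genes, Ddr2 encodes a receptor tyrosine kinase of the cell surface whose ligands are fibrillar collagens. Rgs11 encodes a regulator of G protein signalling of the R7 family, which pairs with the G protein subunit Gnb5 and speeds GTP hydrolysis by inhibitory G protein alpha subunits. Dpp4, also called CD26, is a membrane serine peptidase that removes dipeptides from the amino terminus of chemokines and incretins and binds adenosine deaminase. Aass is the mitochondrial enzyme that starts lysine breakdown by way of saccharopine. The question asked of them here was how they behaved in the libraries that had not been used to choose them, and in both media.

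The genes lie on 4 chromosomes (mm10, GENCODE vM21). Ddr2 (ENSMUSG00000026674) spans chr1:169972307-170110762 on the minus strand, and the antisense gene 3110045C21Rik overlaps it. Dpp4 (ENSMUSG00000035000) spans chr2:62330073-62412231 on the minus strand and is overlapped by the antisense gene Gm13561. Aass (ENSMUSG00000029695) spans chr6:23072173-23132986 on the minus strand with no overlapping gene. Rgs11 (ENSMUSG00000024186) spans chr17:26202951-26211324 on the plus strand, and its 5′ part overlaps the 5′ part of Arhgdig, a gene on the opposite strand. The libraries were stranded, but the counting options named for them do not give a strand setting, so reads from the shared part of Rgs11 and Arhgdig, or from an antisense partner, may have been split between the genes.

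The sequence before each start that RefSeq annotates is shown. RefSeq (GRCm38.p6) promoters were matched for 3 of the 4 genes, Ddr2, Dpp4 and Aass. The 250 bases before the start follow, 5′ to 3′ on the minus strand of each gene, with CCAAT and TATAAA in capitals in either orientation.
Ddr2 chr1:170088945-170089194: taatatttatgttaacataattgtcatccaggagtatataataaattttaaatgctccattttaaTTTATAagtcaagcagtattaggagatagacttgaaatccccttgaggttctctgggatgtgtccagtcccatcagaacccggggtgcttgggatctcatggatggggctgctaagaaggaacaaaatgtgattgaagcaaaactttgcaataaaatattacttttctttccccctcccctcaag
Dpp4 chr2:62412232-62412481: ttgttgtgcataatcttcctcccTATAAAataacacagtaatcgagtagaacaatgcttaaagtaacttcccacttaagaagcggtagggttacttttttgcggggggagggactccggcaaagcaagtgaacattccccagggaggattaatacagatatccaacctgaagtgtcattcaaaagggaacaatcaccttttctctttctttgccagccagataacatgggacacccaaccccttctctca
Aass chr6:23132987-23133236: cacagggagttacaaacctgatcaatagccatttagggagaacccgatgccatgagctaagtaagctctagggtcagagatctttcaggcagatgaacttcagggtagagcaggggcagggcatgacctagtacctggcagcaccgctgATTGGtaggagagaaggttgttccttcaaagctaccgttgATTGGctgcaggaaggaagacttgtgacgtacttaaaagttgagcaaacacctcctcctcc
The RefSeq start of Ddr2 lies 21818 bp inside the GENCODE gene, while those of Dpp4 and Aass are 0 bp from the GENCODE start. The Ddr2 window is thus a different place from the GENCODE start used for the wider window below. Whether transcription begins there in these cells was not tested. TATAAA occurred once in Ddr2 and once in Dpp4 and is found in 12.4% of the 32851 RefSeq windows of this length. CCAAT occurred 2 times in Aass and is found in 33.8% of them. The nuclear receptor half-sites AAGGTCA and AAGGCCA, searched on both strands and present in 4.08% and 5.24% of the windows, had 0 matches in these 3.

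A wider window of 10 kb on either side of the GENCODE start was read from GRCm38 for the 2 extended half-sites, TCAAGGTCA and TCAAGGCCA, on both strands. TCAAGGTCA had 0 matches around the 4 genes and occurs in 42.2% of such windows over 21938 protein-coding genes. TCAAGGCCA had 12 matches, 3 around Ddr2, 7 around Rgs11, 1 around Dpp4 and 1 around Aass, and occurs in 64.6% of windows. Of these 12, 9 lie in sequence that the assembly masks as repeat. Matches of Rgs11 and Aass outside masked repeats and the single Dpp4 match are printed on the strand that carries them, with the half-site in capitals, followed by the 29 bases that recur.
Rgs11, intron, chr17:26206972-26206980, 4021 bp after the start and inside Arhgdig: tatagtggatTCAAGGCCAgcacgaacca
Aass, intron, chr6:23127180-23127188, 5806 bp after the start: caaagatctcTCAAGGCCAcggcgggtaa
Dpp4, intron, masked, chr2:62408387-62408395, 3844 bp after the start: ttttctgagtTCAAGGCCAgcctagaaac
The recurring stretch: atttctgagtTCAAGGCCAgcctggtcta
That last stretch stands in 4 copies, 1 around Ddr2 and 3 around Rgs11. A match is a run of letters and says nothing about binding, since no binding data were analysed here.

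Total counts ran from 36514172 to 45443379 a library in FCS/LIF and from 26653035 to 32526534 in 2i/LIF. A gene is said to have risen or fallen where the adjusted p-value of edgeR's quasi-likelihood test was under 0.01 and the change was over 1.5-fold, and the share of all tested genes that did so is given with each comparison. Counts are given as deposited, and levels as CPM, the counts divided by the TMM-scaled library size and multiplied by 1e+06. Nr5a2 RNA does not check the NrKO label, because counts over the whole gene include transcripts of the disrupted alleles: in 2i/LIF Nr5a2 stood at 61.8 to 80.2 CPM in +E+N and at 63.9 to 78.4 CPM in −N, and in FCS/LIF at 36.1 to 39.8 against 25.5 to 27.1 CPM. Esrrb RNA, which sums transgene and disrupted endogenous transcripts, fell in FCS/LIF after Dox withdrawal (311.6 ± 57.6 to 69.6 ± 6.44 CPM, SD, n = 2) and did not pass the test in 2i/LIF (576 ± 52.8 to 418 ± 33.2 CPM, SD, n = 3; log2 fold change −0.46, SE 0.158, adjusted p = 0.116). Replicates of 1 group come from the same line, so every p-value measures the spread between these cultures only.

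In control ESCs the 4 genes were low to moderate in expression. On the TPM scale, which corrects for transcript length, Dpp4 in 2i/LIF +E+N cells stood at 20.7 ± 4.43, Rgs11 at 9.38 ± 2.51, Ddr2 at 3.49 ± 0.791 and Aass at 3.28 ± 0.21 (SD, n = 3). In FCS/LIF +E+N cells Aass stood at 3.52 ± 0.0141 TPM, Dpp4 at 3.39 ± 0.382, Rgs11 at 2.60 ± 0.771 and Ddr2 at 0.405 ± 0.00707 (SD, n = 2). Per unit of length Dpp4 led in 2i/LIF, and the TPM ranges of Dpp4, Rgs11 and Ddr2 lay above their FCS/LIF ranges while those of Aass met at 3.51.

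**Figure D1:**
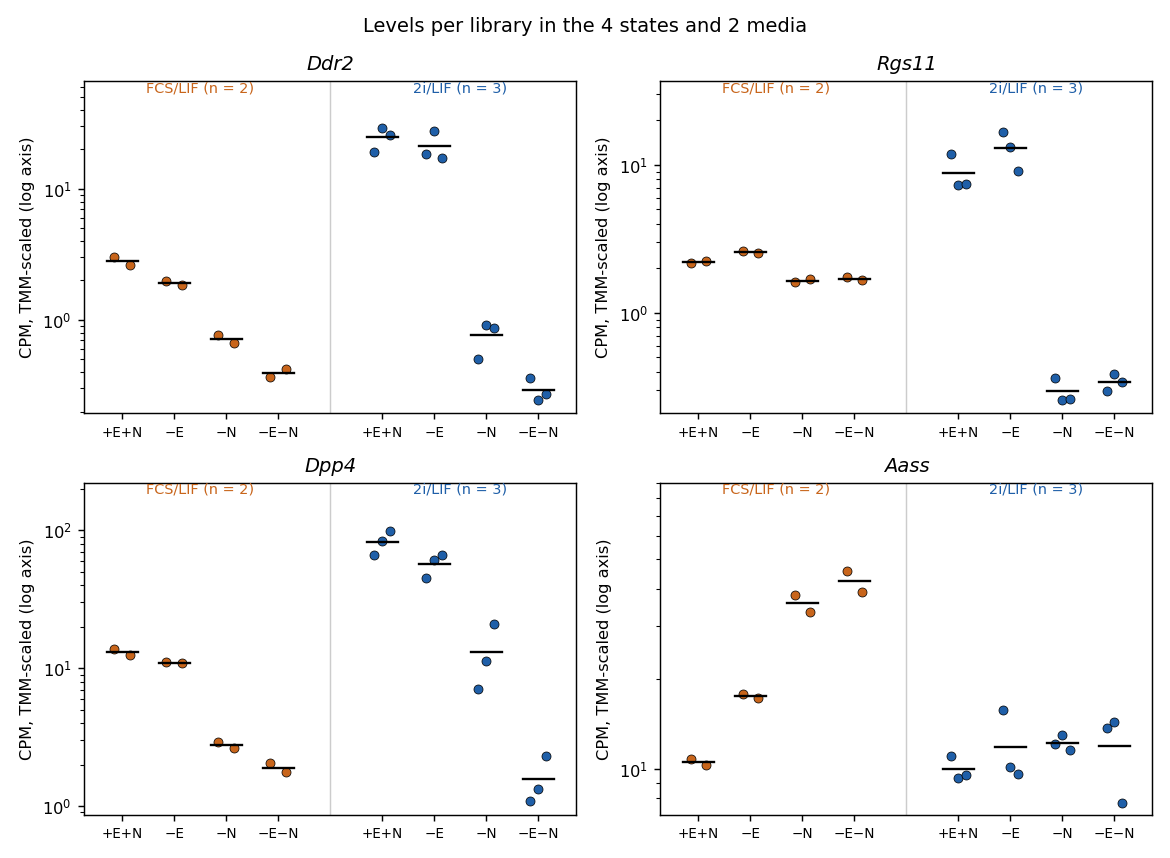
TMM-scaled CPM on a log axis for each library (points) of the 4 states in FCS/LIF (orange, n = 2 per state) and 2i/LIF (blue, n = 3 per state), with the group mean as a line. Ddr2 and Dpp4 are low in −N and −E−N in both media, Rgs11 drops to 0.258 to 0.388 CPM in 2i/LIF, and Aass is raised in FCS/LIF.

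Ddr2, the collagen receptor, was low in every library that lacked Nr5a2. In FCS/LIF the +E+N libraries held 115 and 115 counts, those of −E 84 and 77, those of −N 32 and 31, and those of −E−N 14 and 17. In 2i/LIF +E+N gave 599, 783 and 744 counts, −E gave 518, 768 and 499, −N gave 14, 25 and 23, and −E−N gave 11, 7 and 8. Libraries with and without Nr5a2 do not overlap in either medium. This is a description, as they include the −N and +E+N libraries of the choice, and the share of all genes that separate so was not counted. Its level in 2i/LIF −N was 3.09% of that in +E+N (0.764 ± 0.224 against 24.7 ± 5.03 CPM), and in FCS/LIF −N it was 25.5% (0.72 ± 0.0702 against 2.82 ± 0.261 CPM). The chosen comparison, −N against +E+N, gave a log2 fold change of −5.02 in 2i/LIF and −1.99 in FCS/LIF.

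Dpp4, the peptidase, followed Ddr2 in direction at a higher level. In FCS/LIF +E+N gave 528 and 540 counts, −E gave 471 and 458, −N gave 122 and 122, and −E−N gave 78 and 71. The 2i/LIF libraries of +E+N held 2050, 2250 and 2822 counts, those of −E 1265, 1704 and 1904, those of −N 196, 305 and 562, and those of −E−N 33, 38 and 68. Libraries without Nr5a2 were again below all others of their medium, which is likewise a description that includes the libraries of the choice. The −N libraries of 2i/LIF varied widely (13.1 ± 7.15 CPM), as replicate 3 was at 562 counts, but every one of them was above the −E−N libraries (1.57 ± 0.639 CPM). The log2 fold change in −N against +E+N was −2.66 in 2i/LIF and −2.25 in FCS/LIF.

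Rgs11, the G protein regulator, was nearly silent without Nr5a2 in 2i/LIF, where +E+N gave 367, 196 and 212 counts, −E gave 466, 365 and 261, −N gave 10, 7 and 7, and −E−N gave 9, 11 and 10. The FCS/LIF counts were much closer together, with 83 and 98 for +E+N, 111 and 107 for −E, 67 and 78 for −N, and 66 and 67 for −E−N. CPM ranges with and without Nr5a2 do not overlap in FCS/LIF either, at 1.61 to 1.73 against 2.17 to 2.6, but TPM ranges do (1.85 to 3.05 against 2.06 to 3.15). These ranges too include the libraries of the choice and are a description. The −N against +E+N log2 fold change was −4.89 in 2i/LIF against −0.44 in FCS/LIF.

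Aass, the lysine enzyme, went the other way in FCS/LIF, where +E+N gave 415 and 452 counts, −E gave 762 and 724, −N gave 1583 and 1541, and −E−N gave 1742 and 1571. The 4 states were ordered without overlap in CPM, from 10.6 ± 0.342 in +E+N through 17.6 ± 0.443 in −E and 35.7 ± 3.36 in −N to 42.3 ± 4.92 in −E−N (SD, n = 2). The 2i/LIF libraries of +E+N held 346, 252 and 275 counts, those of −E 441, 282 and 279, those of −N 335, 352 and 309, and those of −E−N 418, 406 and 228. The state means in 2i/LIF, from 10.0 to 12.2 CPM, differed by less than the spread within −E or −E−N. For −N against +E+N the log2 fold changes were 1.73 (FCS/LIF) and 0.28 (2i/LIF).

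Loss of Nr5a2 in cells kept without Dox, −E−N against −E, uses none of the libraries by which the genes were chosen, though it uses the same NrKO line. In 2i/LIF 3 of the 4 genes fell, against 6.21% of all 14355 genes that fell and 13.1% that changed in either direction. Ddr2 fell by 6.13 on the log2 scale (SE 0.303, adjusted p = 1.15e-07), to 1.39% of its −E level. Rgs11 fell by 5.22 (SE 0.318, adjusted p = 4.93e-07), to 2.63%. Dpp4 fell by 5.17 (SE 0.401, adjusted p = 2.74e-06), to 2.74%. Among the 892 genes that fell, these were the 5th, 8th and 9th by size of change. Aass did not pass the test, with a log2 fold change of 0.02 and a 95% interval from −0.48 to 0.51 (adjusted p = 0.96). The median log2 fold change was −5.20 over the 4 genes and −0.00438 over all genes tested. Esrrb RNA also fell in −E−N against −E, at log2 fold changes of −1.51 in 2i/LIF (adjusted p = 2.87e-05) and −1.21 in FCS/LIF (adjusted p = 0.000941). In −E against +E+N, Nr5a2 RNA fell in FCS/LIF (−0.98, adjusted p = 0.000133) and did not pass in 2i/LIF (−0.59, adjusted p = 0.129). The part of these changes in the values of the 4 genes was not tested. In these bulk libraries, fewer cells that express a gene and less RNA per cell cannot be told apart.

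In FCS/LIF 3 of 4 genes passed, 2 lower and 1 higher, against 5.05% of 15636 genes (1.53% lower, 3.52% higher). Dpp4 fell by 2.53 on the log2 scale (SE 0.143, adjusted p = 5.9e-05), to 17.3% of its −E level. Ddr2 fell by 2.26 (SE 0.243, adjusted p = 0.000773), to 20.7%. Aass rose by 1.27 (SE 0.0995, adjusted p = 0.000294), 2.41-fold. Rgs11 did not pass, at −0.60 (SE 0.176, adjusted p = 0.0412), and its TPM were 2.65 ± 0.566 in −E−N and 2.73 ± 0.198 in −E. The Ddr2 call, which rests on 14 to 84 counts a library, was lost without −E replicate 1 (adjusted p = 0.0125) or without −E−N replicate 2 (adjusted p = 0.0121). The number of genes called in FCS/LIF was 790, and 84 without −E replicate 1, 137 without −E−N replicate 2 and 309 without −E replicate 2.

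**Figure D2:**
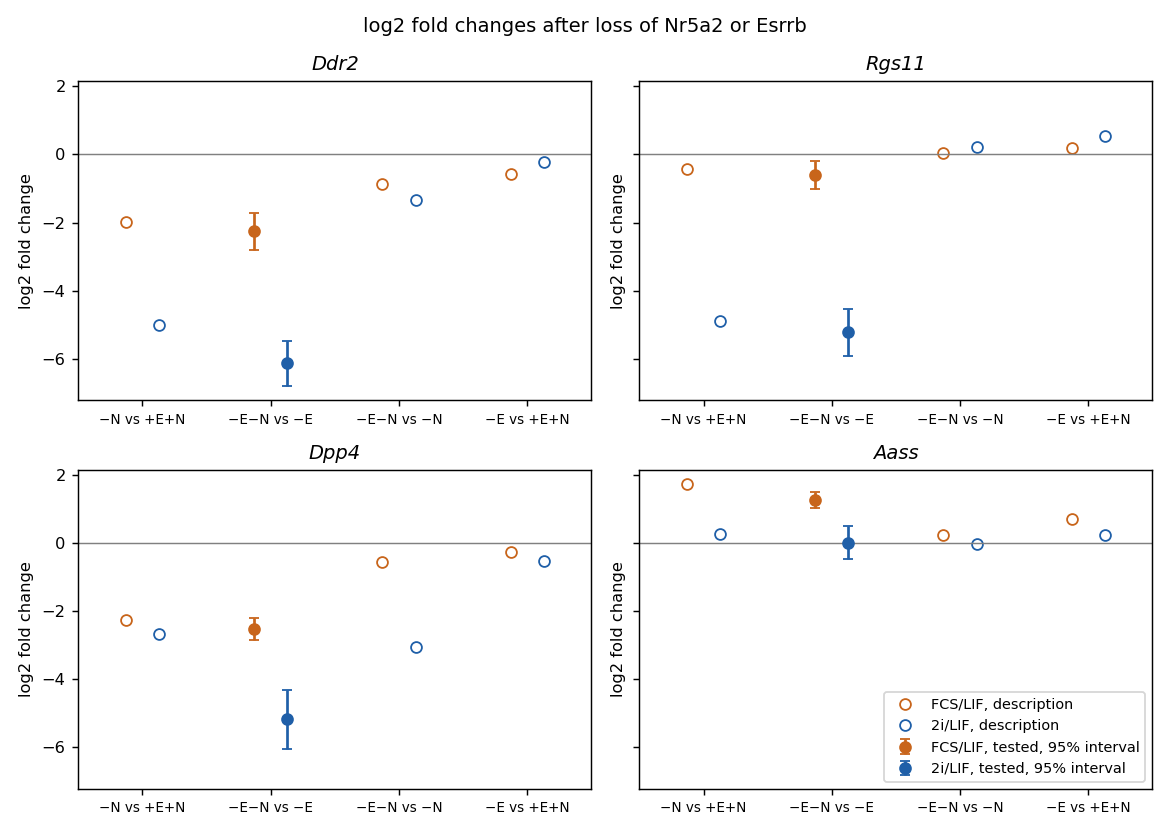
log2 fold changes of each gene in FCS/LIF (orange) and 2i/LIF (blue) for 4 comparisons. Filled points with 95% intervals were tested and open points are descriptions, since they use libraries by which the genes were chosen. In −E−N against −E the 2i/LIF intervals of Ddr2, Rgs11 and Dpp4 lie below −4 and that of Aass spans 0.

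The change after Nr5a2 loss differed between media for all 4 genes in a fit of all 20 libraries, where 6.9% of 16147 genes passed (adjusted p under 0.01, no fold limit; 1114 genes, or 2410 with replicate blocks). The log2 fold change in FCS/LIF was above that in 2i/LIF by 4.63 for Rgs11 (SE 0.399, adjusted p = 1.48e-06), 3.89 for Ddr2 (SE 0.472, adjusted p = 4.65e-05), 2.66 for Dpp4 (SE 0.541, adjusted p = 0.00304) and 1.26 for Aass (SE 0.301, adjusted p = 0.00949). The last 2 were near the threshold. The Dpp4 call was lost on leaving out any 1 of the 4 FCS/LIF libraries of −E and −E−N. The Aass call was lost on leaving out any 1 of those or 2i/LIF −E replicate 1. Over the 10 fits without 1 library, the difference ranged from 2.44 to 3.02 for Dpp4 and from 0.98 to 1.40 for Aass.

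The levels before and after Nr5a2 loss were then compared between media. In −E cells Ddr2 was higher in 2i/LIF by 3.47 on the log2 scale (SE 0.25, adjusted p = 3.44e-09), Dpp4 by 2.39 (SE 0.323, adjusted p = 5.94e-06) and Rgs11 by 2.33 (SE 0.255, adjusted p = 5.39e-07), in a comparison that 38.8% of genes passed. Aass did not pass there (−0.57, SE 0.212, adjusted p = 0.0271). In −E−N cells, where 35% of genes passed, Ddr2 and Dpp4 did not differ past the threshold (−0.42, 95% interval −1.26 to 0.42, and −0.27, 95% interval −1.21 to 0.67). Rgs11 was lower in 2i/LIF, at −2.31 (SE 0.312, adjusted p = 7.11e-06), and so was Aass, at −1.83 (SE 0.208, adjusted p = 1.07e-06). Over the 8 groups Ddr2 and Dpp4 thus ended at overlapping or neighbouring levels in both media (0.293 and 0.394 CPM for Ddr2, 1.57 and 1.90 CPM for Dpp4), while Rgs11 ended at 0.341 CPM in 2i/LIF and 1.69 CPM in FCS/LIF. In the control and −N states, which served the choice and are given without a test, the media differences in the same direction were 3.13 and 0.09 for Ddr2, 2.66 and 2.24 for Dpp4, 2.00 and −2.47 for Rgs11, and −0.08 and −1.54 for Aass.

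**Figure D3:**
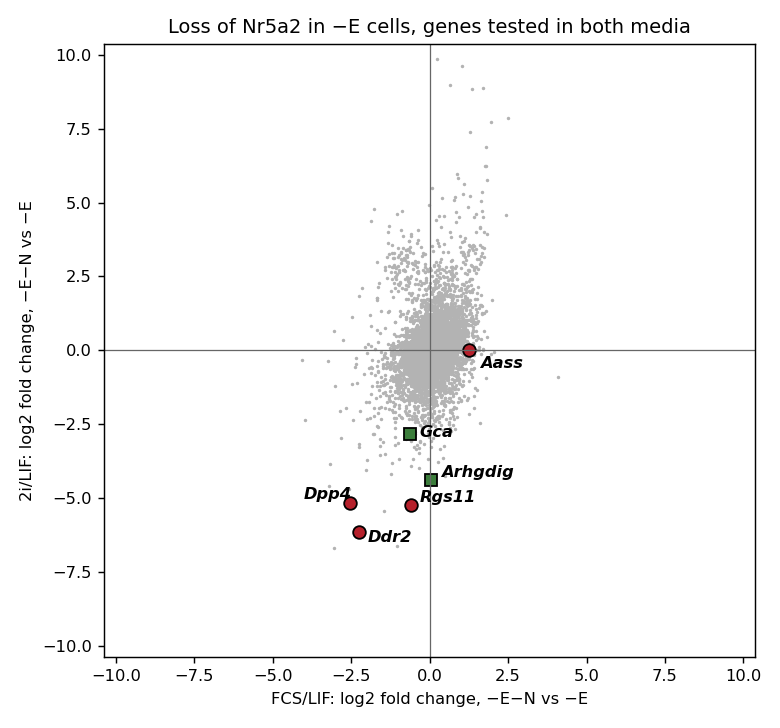
log2 fold change in −E−N against −E for the 13844 genes tested in both media, FCS/LIF on the x axis and 2i/LIF on the y axis, with all genes in grey, the 4 genes as red circles and 2 neighbours of theirs, Arhgdig and Gca, as green squares. Ddr2 and Dpp4 are low on both axes, Rgs11 and Arhgdig on the y axis, and Aass is raised on the x axis only.

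After Dox withdrawal alone, −E against +E+N, the 4 genes had log2 fold changes between −0.58 and 0.71. This comparison shares its +E+N libraries with the one used to choose the genes, so the members' values are given as a description with no test. In 2i/LIF, where 1.55% of all genes passed (223 genes, or 596 when replicate numbers entered the fit as blocks), the log2 fold changes were −0.23 for Ddr2 (SE 0.202), 0.56 for Rgs11 (SE 0.236), −0.52 for Dpp4 (SE 0.297) and 0.25 for Aass (SE 0.228). In FCS/LIF, where 5.76% of all genes passed, they were −0.58 for Ddr2 (SE 0.195), 0.20 for Rgs11, −0.27 for Dpp4 and 0.71 for Aass (SE 0.105). The 2 Aass libraries of −E, at 762 and 724 counts, were above those of +E+N, at 415 and 452.

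With Nr5a2 already lost, Dpp4 was lower still in 2i/LIF after Dox withdrawal. The comparison of −E−N with −N uses −N libraries of the choice and is a description. Dpp4 was at a log2 fold change of −3.04 in 2i/LIF and −0.55 in FCS/LIF, and Ddr2 at −1.34 and −0.86. Rgs11 (0.22 and 0.04) and Aass (−0.02 and 0.25) differed by less than the spread between libraries in 2i/LIF. The excess of the double loss over the sum of the single losses in 2i/LIF was −2.51 on the log2 scale for Dpp4 (SE 0.507), −1.12 for Ddr2 (SE 0.442), −0.33 for Rgs11 (SE 0.491) and −0.27 for Aass (SE 0.322), with no test for the same reason. In FCS/LIF the excess, also without a test, was −0.28 for Dpp4 (SE 0.196) and −0.27 for Ddr2 (SE 0.329). For Rgs11 it was −0.16 (SE 0.249) and for Aass −0.46 (SE 0.142) in that medium.

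Markers of cell states were also read in −E−N against −E. Of all genes, 6.9% rose and 6.21% fell there in 2i/LIF, and 3.52% rose and 1.53% fell in FCS/LIF. The summed level of 10 markers of pluripotent ESCs went from 4790 to 5376 CPM in −E to 2296 to 3124 CPM in −E−N in 2i/LIF, with 6 of 10 lower, and from 3198 to 3344 to 2144 to 2347 CPM in FCS/LIF, with 4 of 10 lower. Trophectoderm markers rose, 4 of 5 tested in 2i/LIF (72.0 to 89.9 against 158 to 230 CPM) and 5 of 6 in FCS/LIF (149 to 179 against 314 to 396 CPM). Primitive endoderm markers held 2 higher and 1 lower of 7 in 2i/LIF (21.7 to 26.4 against 17.9 to 21.8 CPM) and 0 higher and 1 lower of 9 in FCS/LIF (314 to 345 against 403 to 522 CPM). Mesoderm markers held 1 lower of 3 in 2i/LIF (5.39 to 7.32 against 5.20 to 12.4 CPM) and 1 higher of 4 in FCS/LIF (20.5 to 32.8 against 50.6 to 73.0 CPM). Neural markers held 1 lower of 4 in 2i/LIF (60.3 to 92.5 against 44.6 to 62.4 CPM) and 3 higher and 1 lower of 5 in FCS/LIF (167 to 179 against 249 to 275 CPM). Fibroblast markers, for feeder cells, were low throughout, at 8.91 to 24.6 CPM for 8 genes. Postn and Dcn were at 0 in 3 of the 2i/LIF states and Lum at 0 in FCS/LIF +E+N. Of the fibroblast markers tested, 1 of 4 fell in 2i/LIF and 1 of 7 rose in FCS/LIF. Among the neural and mesoderm markers Neurog2 and Foxf1 were at 0 in some 2i/LIF states. The part of these shifts in the values of the 4 genes was not tested.

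Of 16 other collagen receptors, fibrillar collagens and targets tested in FCS/LIF, 4 rose and 0 fell in −E−N against −E (median log2 fold change 0.58, against 0.00142 over all genes), where 3.52% of all genes rose and 1.53% fell. DESeq2 and limma, here on log2(TPM + 1), called 5 and 2 higher and likewise 0 lower, and 0 fell at an unadjusted p under 0.05. In 2i/LIF, of 14 tested, 2 rose and 1 fell (median 0.37), where 6.9% of all genes rose and 6.21% fell. Col3a1, a fibrillar collagen chain, rose in FCS/LIF from 0.402 ± 0.029 to 2.01 ± 0.615 CPM (log2 fold change 2.32, SE 0.445, adjusted p = 0.00831). Src, a kinase that acts downstream of collagen receptors, rose by 0.72 in FCS/LIF (SE 0.124, adjusted p = 0.00516). In 2i/LIF the collagen uptake receptor Mrc2 rose by 1.94 (SE 0.338, adjusted p = 0.000988) and Snai1, a transcriptional repressor of epithelial genes, by 1.77 (SE 0.235, adjusted p = 0.000147). The other calls, named after their values were seen, were Itgb1 (0.65) and Mmp14 (0.69) in FCS/LIF and Ddr1, the paralogue of Ddr2, at −0.66 in 2i/LIF (SE 0.14, adjusted p = 0.00326; not called by limma). Ddr1 was at 0.50 in FCS/LIF, short of the fold limit.

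Of 17 other genes of the R7 complex and RGS family tested in FCS/LIF, 0 passed in either direction by edgeR, DESeq2 or limma, where edgeR called 5.05% of all genes, and 6 had an unadjusted p under 0.05 in edgeR, all higher. Of 12 tested in 2i/LIF, 1 fell by edgeR and DESeq2 and 0 by limma, where 6.21% of all genes fell by edgeR. That gene was Gpr179, an orphan receptor that anchors R7 proteins at the membrane, with 2.85 ± 0.617 CPM in −E and 1.14 ± 0.112 CPM in −E−N (log2 fold change −1.31, SE 0.256, adjusted p = 0.00211). Gnb5, the obligate partner, was at 0.18 in FCS/LIF (SE 0.194) and −0.06 in 2i/LIF (SE 0.355). Rgs9, another R7 member, was at −0.0021 (SE 0.548) and −0.28 (SE 0.263).

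Among the family, partners and substrates of Dpp4, 0 of 11 tested passed in FCS/LIF by edgeR, DESeq2 or limma, where edgeR called 5.05% of all genes. In edgeR 4 of the 11 had an unadjusted p under 0.05 (3 higher and 1 lower). In 2i/LIF 2 of 10 rose, where 6.9% of all genes did. Cxcl12, a chemokine that Dpp4 cleaves, rose in 2i/LIF from 0.95 ± 0.807 to 6.09 ± 0.654 CPM (log2 fold change 2.68, SE 0.585, adjusted p = 0.00403), and in FCS/LIF stood at 28.3 ± 2.9 and 22.1 ± 0.39 CPM. Dpp6, a family member without peptidase activity, rose by 1.84 in 2i/LIF (SE 0.298, adjusted p = 0.000611). Ada, the adenosine deaminase that binds Dpp4, was at 0.25 in FCS/LIF and 0.41 in 2i/LIF and did not pass.

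Of 16 other enzymes and partners of lysine breakdown tested in FCS/LIF, 0 rose and 1 fell in −E−N against −E (median 0.01), by edgeR, DESeq2 and limma alike. Of all genes, 3.52% rose and 1.53% fell there by edgeR. In edgeR 9 of the 16 had an unadjusted p under 0.05, 5 higher and 4 lower. The gene that fell was Pipox, the peroxisomal oxidase of the pipecolate branch, from 23.0 ± 0.817 to 10.6 ± 1.07 CPM (log2 fold change −1.11, SE 0.134, adjusted p = 0.00119). In 2i/LIF 1 of 14 rose, against 6.9% of all genes, and this was Aldh7a1, the semialdehyde dehydrogenase that acts after Aass, by 0.59 (SE 0.0763, adjusted p = 0.000121). Dhtkd1 and Gcdh, later enzymes named without a rule, were at −0.45 (SE 0.119) and −0.27 (SE 0.0911) in FCS/LIF, and neither passed. They do not stand for the list, whose genes at an unadjusted p under 0.05 went both ways.

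Genes that start within 500 kb of a member were counted to see whether a change was shared along the chromosome. Around Rgs11 69 genes are annotated and 37 were tested in each medium. In 2i/LIF 3 of the 37 fell, where 6.21% of all genes did. Arhgdig, whose start lies 4.8 kb inside Rgs11, had 1095, 591 and 448 counts in −E and 24, 38 and 43 in −E−N, and fell by 4.39 on the log2 scale (SE 0.374, adjusted p = 4.93e-06). In FCS/LIF its counts were 382 and 369 in −E and 390 and 329 in −E−N, with a log2 fold change of 0.05 (SE 0.184, adjusted p = 0.875). The difference between media passed the test (4.45, SE 0.483, adjusted p = 1.65e-05). Reads of the part that Arhgdig and Rgs11 share may have been split between them. Tmem8, 89.7 kb before the start of Rgs11, and Nme4, a mitochondrial nucleoside diphosphate kinase gene 107.3 kb before it, fell in 2i/LIF by 0.99 (SE 0.143, adjusted p = 0.000274) and by 0.78 (SE 0.128, adjusted p = 0.000662). In FCS/LIF only Dusp1, a dual specificity phosphatase 359.2 kb beyond the start, passed, at 0.61 (SE 0.0899, adjusted p = 0.00261), where 5.05% of all genes did.

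Around Dpp4 12 genes are annotated and only Gca, which encodes the calcium-binding protein grancalcin, was expressed enough for the test. Of all genes tested, 6.21% fell in 2i/LIF and 1.53% in FCS/LIF. Gca starts 252.1 kb before Dpp4. In 2i/LIF it had 2925, 2695 and 2382 counts in −E and 425, 389 and 364 in −E−N, and fell by 2.82 on the log2 scale (SE 0.112, adjusted p = 2.33e-08). In FCS/LIF it went from 998 and 916 to 587 and 562 counts, at −0.63 (SE 0.091, adjusted p = 0.00248; not called by limma), and the media difference passed the test (2.20, SE 0.155, adjusted p = 5.58e-07).

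No tested neighbour of Ddr2 passed. Of 19 genes annotated around Ddr2, 5 were tested in FCS/LIF and 4 in 2i/LIF. By edgeR, DESeq2 and limma 0 passed, with 1 at an unadjusted p under 0.05 in edgeR in each medium and log2 fold changes from −0.06 to 0.90 and from −0.25 to 0.84. Of 14 around Aass, 2 were tested in FCS/LIF, where 1.53% of all genes fell, and 1 in 2i/LIF, where 6.9% rose. Gm5989, a processed pseudogene 27.1 kb before Aass, had 44 and 44 counts in −E and 3 and 3 in −E−N and fell by 3.72 (SE 0.368, adjusted p = 0.000587), a value that is uncertain because reads of a pseudogene can be shared with its parent gene. Ptprz1, a receptor phosphatase gene 257.5 kb beyond the start of Aass, rose by 1.60 in 2i/LIF (SE 0.377, adjusted p = 0.00636; not called by limma) and was at 0.30 in FCS/LIF.

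**Figure D4:**
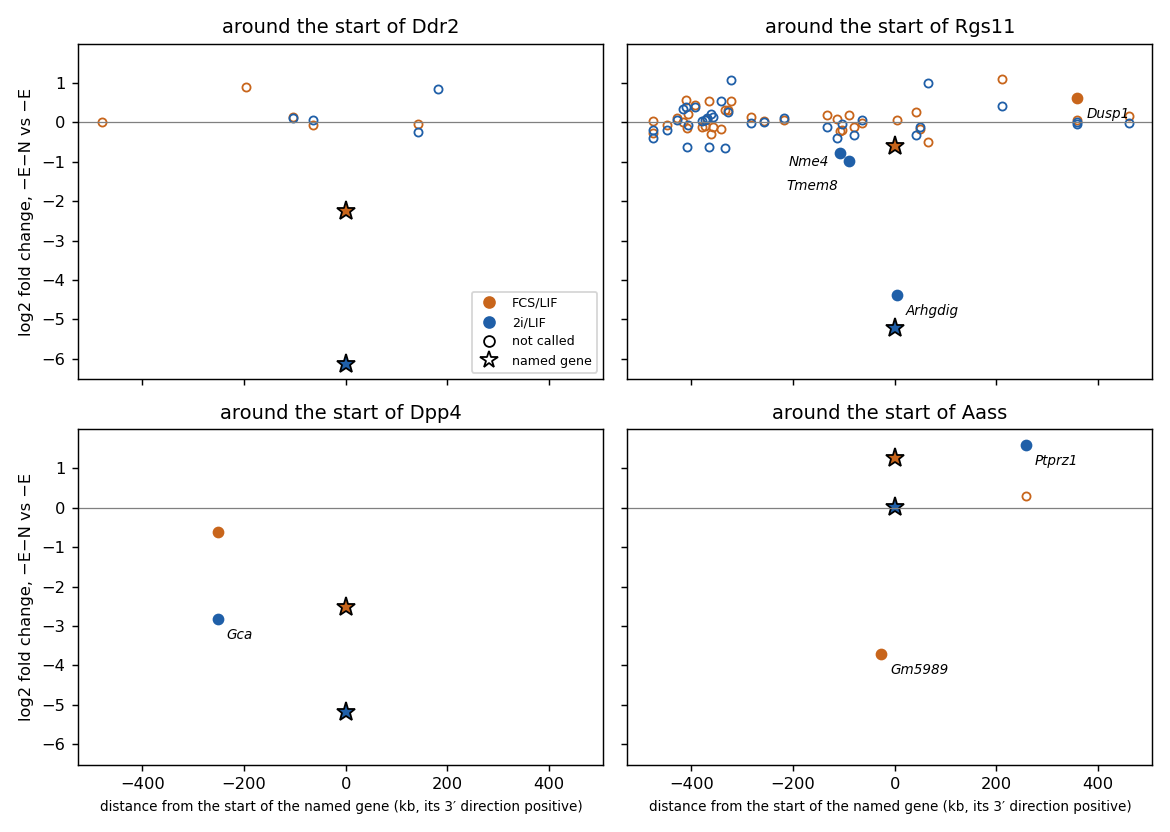
log2 fold change in −E−N against −E of genes that start within 500 kb of each member, against distance from the member's start in kb, in FCS/LIF (orange) and 2i/LIF (blue). Filled circles passed the test, open circles did not, and stars are the members. Arhgdig lies beside Rgs11 in 2i/LIF, and Gca is the single tested gene around Dpp4.

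The genes most like each member over the 20 libraries were sought among 11738 genes that averaged 100 counts or more, by Pearson's r of log2 CPM after the mean of each medium was subtracted. These points share lines and culture occasions, and r is given as a description. Arhgdig was the gene most like Rgs11 (r = 0.984), followed by Pttg1, which encodes securin (0.972), and the nucleoside transporter gene Slc28a3 (0.966). Arhgdig overlaps Rgs11, so the first value may in part reflect reads of the shared part. Ddr2 was closest to Efnb3, an ephrin ligand (0.972), Ttll6, a tubulin polyglutamylase (0.970), and the kinesin gene Kifc3 (0.966). For Dpp4 the closest were Tcp11 (0.964), the adhesion molecule gene Mcam (0.963) and Ccdc160 (0.961). Aass had no gene as close, with Ptpn11, a tyrosine phosphatase, at 0.868, Pdlim5 at 0.833 and Fkbp9 at 0.788. In −E−N against −E in 2i/LIF, all 9 of the genes closest to Ddr2, Rgs11 and Dpp4 fell, from −1.35 for Pttg1 to −5.47 for Slc28a3, which follows from how they were sought. The r between members follows in part from how they were chosen, as the 20 libraries include those used for the choice. Between members r was 0.935 for Ddr2 and Rgs11, 0.934 for Ddr2 and Dpp4, and 0.793 for Rgs11 and Dpp4. With Aass it was −0.36 for Ddr2, −0.13 for Rgs11 and −0.45 for Dpp4.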

How the data were processed

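RNA-seq was measured in 20 of the 89 samples of the series, and the 69 chromatin samples were not analysed here. The authors aligned reads of stranded, poly-A selected libraries to mm10 with STAR and quantified them with RSEM. The deposited tables hold estimated counts, already whole numbers, and TPM per gene, and 92 spike-in rows at 0 counts were left out. Gene rows were matched to GENCODE vM21 by identifier (54079 of 54238 rows).

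Genes with at least 20 counts in every replicate of 1 state or more were kept. Counts were tested with edgeR 4.0.16 (TMM, quasi-likelihood F test, Benjamini-Hochberg adjustment over all genes kept) in R 4.3.3, with the 4 states of 1 medium in a fit (15636 genes in FCS/LIF, 14355 in 2i/LIF) and all 8 groups in a fit for comparisons between media (16147 genes). The code was tested on simulated data. Exact permutation of single values cannot go below p = 0.333 with 2 against 2 libraries or 0.1 with 3 against 3. Alternatives were DESeq2 1.42.0, limma 3.58.1 on log2(TPM + 1) or log2(TPM + 0.1), other size factors and filters, a replicate block and leaving out each library. In 2i/LIF, deviations of −E and −E−N libraries of the same replicate number correlated at 0.448, 0.106 and 0.441. Those of +E+N and −N correlated at 0.572, 0.17 and 0.473, and those of +E+N and −E at 0.483, 0.187 and 0.381. Correlations between libraries of different numbers were not computed, so this does not settle whether the numbers pair the libraries. The labels give only the numbers, and the main fits were unpaired. In 2i/LIF 1883 genes were called in −E−N against −E, and 2539 with the replicate block.

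The members and the lists were chosen with earlier results of these data known. Besides the members, Nr5a2 and Esrrb, the text names from each list up to 4 genes with the largest called change in −E−N against −E. It also names the 3 genes most like each member, and called genes within 500 kb. Outside this rule it names the called genes Itgb1, Mmp14 and Ddr1. Gnb5, Rgs9, Ada, Dhtkd1 and Gcdh, which did not pass, are also named outside it. Some items of the lists and sequences searched are not reported here.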

Additional observations from a re-analysis of the deposited data

Results flagged for a closer look

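All 4 genes were marked because their change after loss of Nr5a2 in −E cells differed between the media by a test of the difference itself. The log2 fold change in FCS/LIF minus that in 2i/LIF was 3.89 for Ddr2 (−2.26 against −6.13), 4.63 for Rgs11 (−0.60 against −5.22), 2.66 for Dpp4 (−2.53 against −5.17) and 1.26 for Aass (1.27 against 0.02). In CPM every library of −E−N lay below every library of −E of its medium for Ddr2, Rgs11 and Dpp4. The share of all genes that separate in this way was not counted. With 2 against 2 libraries, as in FCS/LIF, exact permutation cannot go below p = 0.333. In TPM −E−N replicate 1 of FCS/LIF (3.05) lay above both −E libraries (2.59 and 2.87) for Rgs11.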

How the results depend on the processing

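Of 276 alternative values of the tested comparisons of the 4 genes, 249 kept their direction and their side of the threshold, and the cause of the others was not tested. For −E−N against −E in FCS/LIF, Ddr2 missed the threshold with limma on log2(TPM + 0.1) (−1.09) and log2(TPM + 1) (−0.25), a scale that understates changes of low genes, and ranged from −2.38 to −2.20 on leaving out a library. In 2i/LIF Aass ranged from −0.14 to 0.29 and so changed sign without passing. The media difference of Aass missed the threshold with DESeq2 size factors (1.25), the filterByExpr filter (1.25) and limma on log2(TPM + 0.1) (1.25), and ranged from 0.98 to 1.40 on leaving out a library. That of Dpp4 missed it with limma on log2(TPM + 0.1) (2.13) and ranged from 2.44 to 3.02. In −E cells Aass passed with limma (−0.75 and −0.63) and with no filter on low counts (−0.62), and ranged from −0.85 to −0.44. In −E−N cells Dpp4 reached 0.0171 and 0.0168 with limma. In −E against +E+N, a description, limma on log2(TPM + 0.1) in FCS/LIF gave 0.81 for Aass, −0.37 for Ddr2, −0.13 for Dpp4 and 0.093 for Rgs11, limma on log2(TPM + 1) gave −0.12, −0.10 and 0.065 for the last 3, and Aass in 2i/LIF ranged from −0.025 to 0.37 on leaving out a library. With limma on log2(TPM + 1), −N against +E+N was −1.97 for Ddr2 and −2.85 for Rgs11 in 2i/LIF, and 1.54 for Aass, −0.33 for Ddr2, −1.35 for Dpp4 and −0.31 for Rgs11 in FCS/LIF.

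Numbers of genes called moved more. For −E−N against −E in FCS/LIF (790) they were 437 in the fit of all libraries, 467 and 482 with limma, 1571 with no filter, 1265 with the replicate block and 84 to 616 without a library. For the media difference (1114) they were 1770 with DESeq2, 727 with limma, 2078 with no filter, 2410 with the replicate block and 548 to 1146 without a library. For −E against +E+N in 2i/LIF (223) they were 351 in the fit of all libraries, 447 with DESeq2, 146 and 136 with limma, 401 with no filter, 596 with the replicate block and 87 to 159 without a library. For −E against +E+N in FCS/LIF (901) they were 445, 553 with limma on log2(TPM + 1), 1631 with no filter and 314 to 691 without a library. The replicate block changed no call of the 4 genes. In FCS/LIF the deviations of −E and −E−N correlated at 0.177, those of +E+N and −N at 0.36 and those of +E+N and −E at 0.0361. With 2 replicates a group this does not settle whether the numbers pair the libraries, and they were treated as unpaired. Depth limits Ddr2 and Rgs11 in libraries without Nr5a2, where 2i/LIF counts were 7 to 25 and 7 to 11.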
